A study of Mus musculus with 10 samples.

Results

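The genes described are p53 and its direct targets in cell cycle arrest, apoptosis, DNA repair and feedback, measured in irradiated mouse embryonic fibroblasts (MEFs). The list held 33 genes by name, and each was read from the probeset that carried its symbol alone, the brightest of them where there were several. In this way 29 of the 33 were measured, among 19938 genes with a probeset of their own in the whole series. No probeset carried the name of Trp53, which encodes p53, of Bax or of Gdf15, and the probeset of Cdkn1a, which encodes the cell cycle inhibitor p21, carried a further symbol. These 4 genes were not analysed here.

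RNA was measured on 10 Affymetrix Mouse Gene 1.0 ST arrays. All MEFs were wild type, received 1000 rad to stop their division, and were harvested on day 9 of treatment in medium with murine IL-3. There were 3 arrays of MEFs + DMSO (the solvent), 3 of MEFs + nilotinib at 16 nM, 3 of MEFs + ALL + nilotinib at 16 nM and 1 of MEFs + ALL + DMSO. ALL stands for line 8093, Bcr/Abl transgenic lymphoblasts from acute lymphoblastic leukemia of the B lineage, which were kept apart from the MEFs by a Transwell filter and removed before RNA isolation. Nilotinib inhibits the Bcr/Abl kinase. A filter is given for the co-cultures alone, so the presence of ALL cells and that of the filter cannot be told apart. The methods state that triplicates were separate dishes and that other ALL + DMSO samples were left out because ALL cells had contaminated them. P-values therefore measure the spread between dishes. The ALL + DMSO array that was kept also had raised pro-B and B cell markers (mean 7.73, against 5.99 to 6.20 in the other arrays). How much ALL cell RNA it held was not tested. All arrays came from irradiated cells, so how far the irradiation itself changed p53 targets was not measured.

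p53 is a transcription factor that is kept scarce by the ubiquitin ligase Mdm2 and is stabilized when kinases such as ATM sense broken DNA. It then binds response elements made of a pair of decamer half-sites and switches on genes that halt the cell cycle, repair DNA or kill the cell, together with Mdm2, which closes a negative feedback loop. Fibroblasts that were irradiated stay arrested for long periods, and in such cells p53 and p21 are known to hold the arrest.

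Values are log2 probeset signals, and every difference below is on that log2 scale, so that the -0.39 given for Fas below is a fold of 0.761. "Called" means an adjusted p under 0.05 by limma, corrected over all 35557 probesets. The mean signals of the 29 members over the 10 arrays lay between the 53.2 and 99.3 percentiles of all probesets. The dimmest were close to the array medians of 6.94 to 7.01, with 7.01 for Ddb2, 7.29 for Sesn1 and 7.49 for Bbc3 in MEFs + DMSO. How far such signals stood above background was not tested. In bulk RNA, fewer cells that express a gene and less RNA per cell cannot be told apart.

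The arrays did not contribute equally. The MEFs + ALL + DMSO array stood apart on the first principal component (66.9, against -22.6 to 9.13 in the other 9 arrays), and replicate 2 of MEFs + ALL + nilotinib on the second (-50.0, against -13.1 to 17.0 in the others). The mean log2 signal of 10 leukocyte markers was 9.98 in the MEFs + ALL + DMSO array and 7.96 to 8.20 elsewhere, and that of 13 pro-B and B cell markers was 7.73 against 5.99 to 6.20. Some leukocyte markers were bright without ALL cells too, since in MEFs + DMSO the 10 ran from 6.14 (Ikzf1) to 10.1 (Arhgdib). The mean of 13 fibroblast markers was 11.07 to 11.29 over the arrays, and in MEFs + DMSO they ran from 6.57 (Fap) to 13.6 (Fn1). The mean of 7 macrophage markers was 8.38 to 8.64, and in MEFs + DMSO they ran from 6.67 (Cd14) to 11.9 (Lyz2). How much of the p53 target RNA came from cells other than fibroblasts was not tested. Given its raised leukocyte and B cell markers, the single MEFs + ALL + DMSO array is described last and apart from the others.

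**Figure D1:**
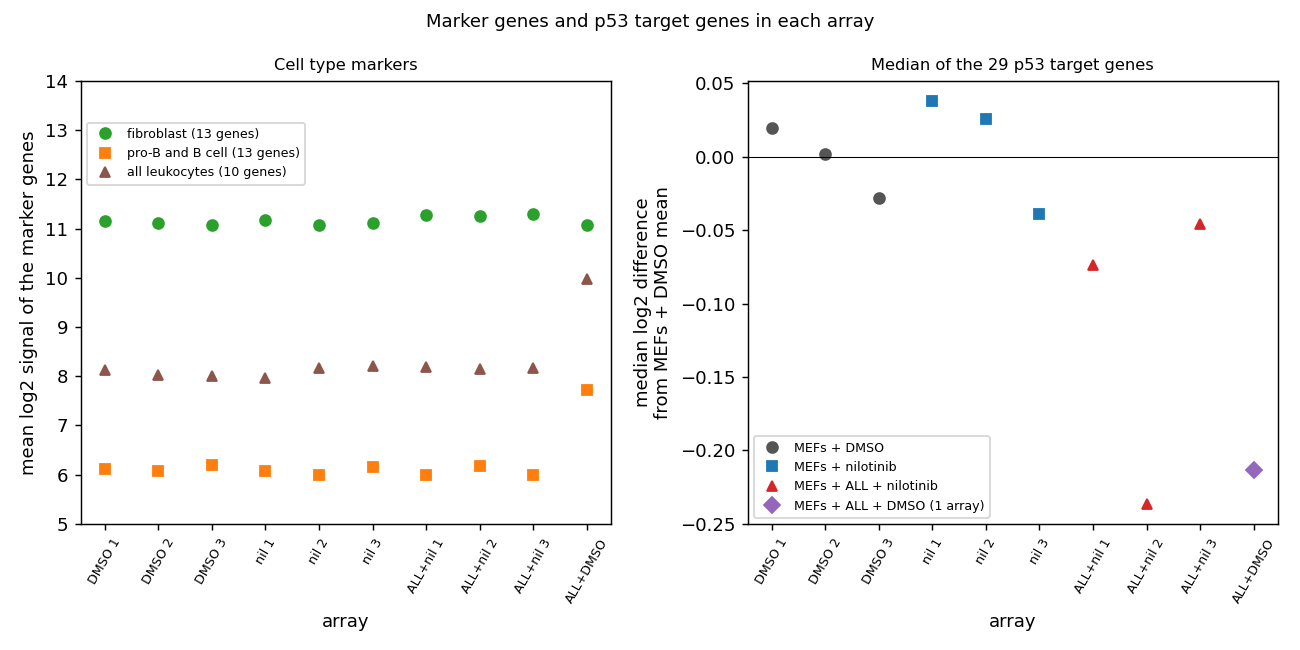
Left, mean log2 signal of fibroblast, pro-B and B cell, and leukocyte marker genes in each of the 10 arrays. Right, for the same arrays, the median over the 29 p53 target genes of the log2 difference from the mean of the 3 MEFs + DMSO arrays. The means of the leukocyte and of the B cell markers are raised in the MEFs + ALL + DMSO array alone. The p53 target median lies lowest in replicate 2 of MEFs + ALL + nilotinib (-0.24) and in the MEFs + ALL + DMSO array (-0.21).

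Promoter windows of 300 bases, 250 upstream and 50 downstream of the start site, were available from RefSeq (GRCm38.p6) for 21 of the 29 measured members. They were searched for the p53 half-site consensus, which reads the same on both strands. At least 1 half-site lay in a window of 8 of these 21 genes (38.1%) and of 9.55% of all 27025 genes with a window. A pair of half-sites at most 13 bases apart lay in none of the 21 and in 0.074% of all genes. Counted by window, since some genes have several, 9 of 30 windows (30.0%) held a half-site, against 8.36% of 32851. The promoters of Mdm2 and Gadd45a are shown because these genes carried the largest differences among the feedback and the arrest genes. The half-site is in capitals, and it is only a match of letters. The best known p53 elements of both genes lie inside the gene and not in these windows. The first is Mdm2 at chr10:117710709-117711008 and the second Gadd45a at chr6:67037358-67037657, both on the minus strand.
Mdm2: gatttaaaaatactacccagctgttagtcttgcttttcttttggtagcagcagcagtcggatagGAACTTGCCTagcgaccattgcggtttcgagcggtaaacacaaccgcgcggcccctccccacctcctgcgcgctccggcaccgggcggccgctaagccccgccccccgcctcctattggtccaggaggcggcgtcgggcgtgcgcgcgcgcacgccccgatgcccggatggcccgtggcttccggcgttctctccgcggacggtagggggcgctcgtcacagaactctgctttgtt
Gadd45a: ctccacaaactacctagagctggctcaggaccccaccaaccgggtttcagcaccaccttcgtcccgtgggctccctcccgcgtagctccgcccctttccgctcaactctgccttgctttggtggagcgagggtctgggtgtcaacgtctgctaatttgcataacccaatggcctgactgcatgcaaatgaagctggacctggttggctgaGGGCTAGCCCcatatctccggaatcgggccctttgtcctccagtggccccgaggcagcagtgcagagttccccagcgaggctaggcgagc

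The half-sites of the other 6 genes are given with their flanks, to show how they differ in sequence. Ccng1 lies at chr11:40755452-40755481 (minus strand), Ei24 at chr9:36797325-36797354 (minus), Polk at chr13:96519399-96519428 (minus), Aen at chr7:78895927-78895956 (plus), Sesn1 at chr10:41887256-41887285 (plus) and the first Rps27l site at chr9:66946193-66946222 (plus). Rps27l has a further half-site at chr9:66946296-66946325.
Ccng1: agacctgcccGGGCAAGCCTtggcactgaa
Ei24: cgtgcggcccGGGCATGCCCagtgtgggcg
Polk: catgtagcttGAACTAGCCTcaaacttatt
Aen: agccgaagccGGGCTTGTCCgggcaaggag
Sesn1: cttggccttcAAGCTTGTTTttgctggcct
Rps27l: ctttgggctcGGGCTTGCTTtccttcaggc
Rps27l, further site: gggcttgttgAGACTTGTCCgggcgacacg

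The first comparison asked whether MEFs exposed to nilotinib-treated ALL cells differed from MEFs + DMSO in p53 target RNA. The differences were small and lay mostly on the lower side. The median over the 29 members was -0.13, against 0.00 over all genes, and 21 of the 29 lay below 0. None of the 29 was called by limma, where 0.627% of all probesets were. At an unadjusted p under 0.05, 9 members were lower (31.0%) and 0 higher, while 6.72% of all probesets were lower and 9.5% higher. The 3 arrays of each group did not overlap for 15 members that were lower (51.7%, against 10.6% of all probesets) and for 1 that was higher (3.45%, against 14.1%). Without replicate 2 of MEFs + ALL + nilotinib the median was -0.07, 7 members were lower at an unadjusted p under 0.05, and 0 were called. In the same comparison 1 of 10 leukocyte markers (Arhgdib), 0 of 13 pro-B and B cell markers and 2 of 13 fibroblast markers (Thy1 and S100a4) were called higher, with list medians of 0.03, -0.10 and -0.02.

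**Figure D2:**
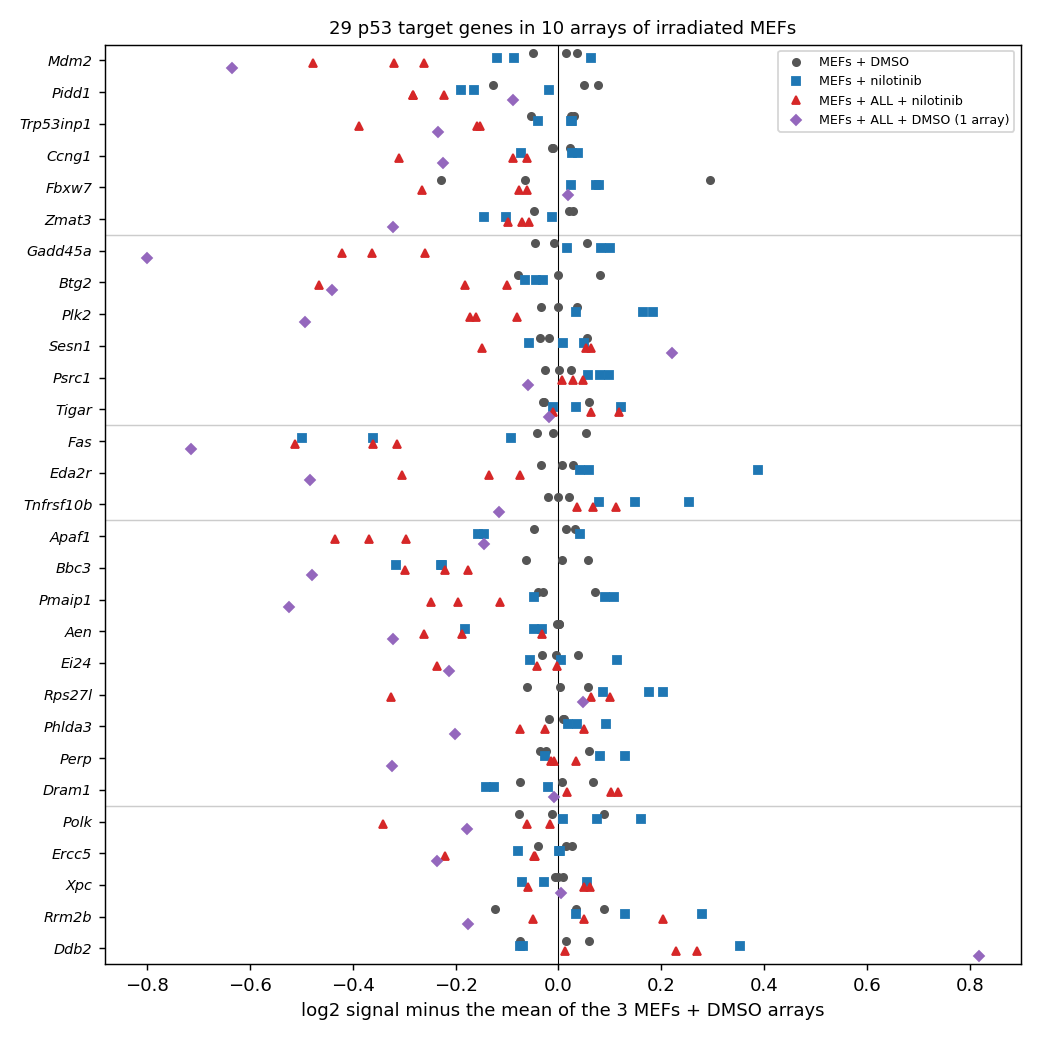
Log2 signal of each of the 29 measured p53 target genes minus its mean in the 3 MEFs + DMSO arrays, 1 symbol per array. Genes are grouped by role, from top to bottom regulators and feedback, arrest and stress, death receptors, apoptosis and autophagy, and DNA repair. The MEFs + ALL + nilotinib arrays lie to the left of all MEFs + DMSO arrays for 15 genes, and the MEFs + ALL + DMSO array reaches -0.80 for Gadd45a and 0.82 for Ddb2.

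Among the regulators and feedback genes, all 6 measured members lay below 0 in this comparison, with a median of -0.19 and 3 at an unadjusted p under 0.05. Mdm2, the ligase that degrades p53, had log2 signals of 10.97, 10.94 and 10.88 in MEFs + DMSO, 10.99, 10.84 and 10.81 in MEFs + nilotinib, 10.61, 10.45 and 10.67 in MEFs + ALL + nilotinib, and 10.30 in MEFs + ALL + DMSO. The arrays with ALL cells were the lowest 4 and did not overlap the other 6. Its difference between MEFs + ALL + nilotinib and MEFs + DMSO was -0.35 (SE 0.08, 95% interval -0.53 to -0.17, limma adjusted p = 0.0978), a fold of 0.783.

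Pidd1, a scaffold of the PIDDosome that activates caspase-2, read 8.28, 8.07 and 8.25 in MEFs + DMSO, 8.18, 8.04 and 8.01 in MEFs + nilotinib, 7.92, 7.98 and 7.92 in MEFs + ALL + nilotinib, and 8.11 in MEFs + ALL + DMSO. The 3 MEFs + ALL + nilotinib arrays were the lowest of all 10, with a difference of -0.26 from MEFs + DMSO (SE 0.08, limma adjusted p = 0.166). Trp53inp1, which promotes p53 phosphorylation and autophagy, read 12.13, 12.13 and 12.05 in MEFs + DMSO, 12.13, 12.13 and 12.06 in MEFs + nilotinib, 11.94, 11.71 and 11.95 in MEFs + ALL + nilotinib, and 11.87 in MEFs + ALL + DMSO. The 6 arrays without ALL cells lay above the 4 with them, and the difference was -0.23 (SE 0.08, limma adjusted p = 0.202). The cyclin gene Ccng1 differed by -0.15, the ubiquitin ligase subunit gene Fbxw7 by -0.13 and the RNA-binding protein gene Zmat3 by -0.08. Fbxw7 overlapped between the groups, and the others did not.

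Among the 6 arrest and stress genes the differences split. Gadd45a, whose product slows the cycle and takes part in DNA repair, read 10.13, 10.06 and 10.02 in MEFs + DMSO, 10.15, 10.09 and 10.17 in MEFs + nilotinib, 9.81, 9.65 and 9.71 in MEFs + ALL + nilotinib, and 9.27 in MEFs + ALL + DMSO. Its group means were 10.07 ± 0.05, 10.14 ± 0.04 and 9.72 ± 0.08 (SD, n = 3), so nilotinib alone left it within 0.07 of the solvent mean while the arrays with ALL cells were lower. The difference from MEFs + DMSO was -0.35 (SE 0.07, 95% interval -0.50 to -0.20, limma adjusted p = 0.0647).

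Btg2, an antiproliferative gene, read 9.84, 9.93 and 9.77 in MEFs + DMSO, 9.82, 9.78 and 9.80 in MEFs + nilotinib, 9.75, 9.38 and 9.66 in MEFs + ALL + nilotinib, and 9.41 in MEFs + ALL + DMSO. Its difference of -0.25 (SE 0.10, limma adjusted p = 0.261) drew much on replicate 2, and one array of MEFs + ALL + nilotinib lay close to the lowest of MEFs + DMSO. Plk2, a polo-like kinase, read 11.74, 11.81 and 11.78 in MEFs + DMSO, 11.81, 11.96 and 11.94 in MEFs + nilotinib, 11.70, 11.60 and 11.62 in MEFs + ALL + nilotinib, and 11.28 in MEFs + ALL + DMSO. It was slightly higher with nilotinib alone and slightly lower with ALL cells and nilotinib (-0.14 from MEFs + DMSO, SE 0.06, limma adjusted p = 0.336). Sesn1, the antioxidant sestrin (-0.01), Psrc1, a spindle protein gene (0.03), and Tigar, a fructose bisphosphatase (0.06), had overlapping arrays.

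The 3 death receptor genes went different ways. Fas, the receptor for Fas ligand, read 8.58, 8.48 and 8.51 in MEFs + DMSO, 8.43, 8.16 and 8.02 in MEFs + nilotinib, 8.16, 8.01 and 8.21 in MEFs + ALL + nilotinib, and 7.81 in MEFs + ALL + DMSO. Every array given nilotinib or ALL cells lay below every MEFs + DMSO array, and both nilotinib groups overlapped each other. The difference of MEFs + ALL + nilotinib from MEFs + DMSO was the largest of the 29 (-0.39, SE 0.11, limma adjusted p = 0.144). Tnfrsf10b, a receptor for TRAIL, did not overlap in the other direction (0.07, limma adjusted p = 0.621). Eda2r, the ectodysplasin A2 receptor, read 10.60, 10.58 and 10.54 in MEFs + DMSO, 10.61, 10.96 and 10.63 in MEFs + nilotinib, 10.50, 10.26 and 10.43 in MEFs + ALL + nilotinib, and 10.09 in MEFs + ALL + DMSO. The 3 groups with replicates were thus in the order nilotinib, DMSO, ALL + nilotinib with no overlap.

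Of 9 measured apoptosis and autophagy genes, 7 lay below 0 with a median of -0.09, and 3 had an unadjusted p under 0.05. Apaf1, the core of the apoptosome, read 9.93, 9.95 and 9.87 in MEFs + DMSO, 9.96, 9.77 and 9.76 in MEFs + nilotinib, 9.55, 9.48 and 9.62 in MEFs + ALL + nilotinib, and 9.77 in MEFs + ALL + DMSO. The 3 MEFs + ALL + nilotinib arrays were the lowest of the 10, and their difference from MEFs + DMSO was -0.37 (SE 0.07, limma adjusted p = 0.0776). Bbc3, which encodes the BH3-only protein PUMA, read 7.43, 7.55 and 7.50 in MEFs + DMSO, 7.26, 7.17 and 7.26 in MEFs + nilotinib, 7.27, 7.19 and 7.31 in MEFs + ALL + nilotinib, and 7.01 in MEFs + ALL + DMSO. Both nilotinib groups lay below MEFs + DMSO by a like amount, -0.23 with ALL cells (SE 0.06, limma adjusted p = 0.149) and -0.26 without (limma adjusted p = 0.338).

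Pmaip1, which encodes the BH3-only protein NOXA, read 9.84, 9.94 and 9.83 in MEFs + DMSO, 9.98, 9.96 and 9.82 in MEFs + nilotinib, 9.76, 9.62 and 9.67 in MEFs + ALL + nilotinib, and 9.35 in MEFs + ALL + DMSO. The arrays with ALL cells were the lowest 4, and the difference from MEFs + DMSO was -0.19 (SE 0.07, limma adjusted p = 0.252). The nuclease gene Aen differed by -0.16 without overlap. The remaining 5, which were Ei24, Rps27l, Phlda3, Perp and Dram1, lay between -0.09 and 0.08 with overlapping arrays.

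**Figure D3:**
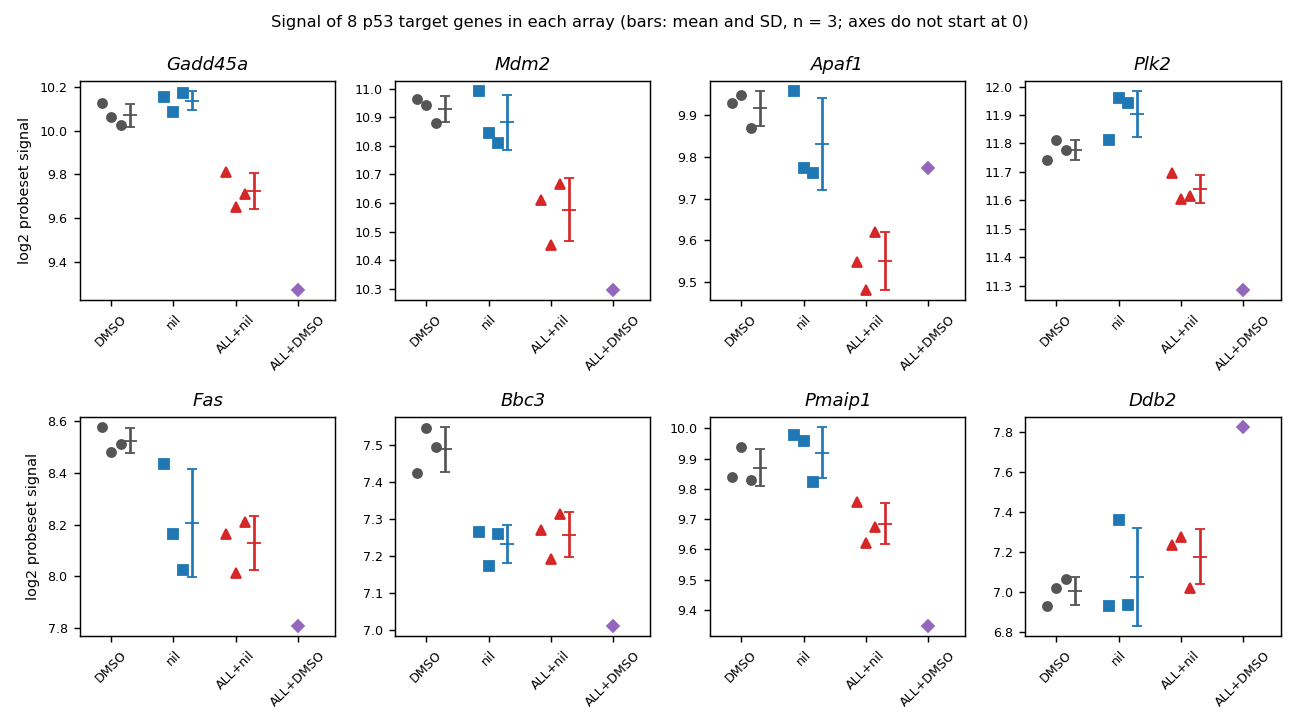
Log2 probeset signal of 8 p53 target genes in each array, with the mean and SD (n = 3) beside each replicated group. DMSO, nil, ALL+nil and ALL+DMSO stand for the 4 groups of MEFs. Gadd45a, Mdm2, Plk2 and Pmaip1 are low only in the arrays with ALL cells, Apaf1 is lowest in ALL+nil, and Ddb2 is high in the single ALL+DMSO array. Fas and Bbc3 lie below DMSO with nilotinib alone too. None of the 8 genes was called between replicated groups in the fit reported.

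The DNA repair and nucleotide supply genes had the smallest median difference of the 5 roles in this comparison, 0.02 over 5 members and 0 at an unadjusted p under 0.05. Polk, a translesion DNA polymerase, read 10.09, 9.99 and 9.93 in MEFs + DMSO, 10.08, 10.17 and 10.01 in MEFs + nilotinib, 9.94, 9.66 and 9.99 in MEFs + ALL + nilotinib, and 9.83 in MEFs + ALL + DMSO. It overlapped between MEFs + ALL + nilotinib and MEFs + DMSO (-0.14). The nucleotide excision repair genes Ercc5 and Xpc differed by -0.10 and 0.02, and Rrm2b, a ribonucleotide reductase subunit, by 0.07. Ddb2, which recognises ultraviolet lesions, read 6.93, 7.02 and 7.07 in MEFs + DMSO, 6.93, 7.36 and 6.94 in MEFs + nilotinib, 7.24, 7.28 and 7.02 in MEFs + ALL + nilotinib, and 7.82 in MEFs + ALL + DMSO. The replicated groups overlapped, and the difference of MEFs + ALL + nilotinib from MEFs + DMSO was 0.17 (SE 0.13, limma adjusted p = 0.546), the highest of the 29.

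Other settings of the same test changed some of these calls. Gadd45a and Apaf1 were called lower after quantile normalization, or when the dimmest probesets were left out, and Gadd45a, Apaf1 and Mdm2 with limma's trend and robust options or its array weights. Leaving out any single replicate gave 0 calls. The share of all probesets called under these settings was not computed.

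The second comparison set MEFs + nilotinib against MEFs + DMSO and asked what the drug did to the MEFs in the absence of ALL cells. The members showed no common direction. None of the 29 was called, and neither was any of all probesets (0%). The median was 0.02, and 16 members lay above 0. At an unadjusted p under 0.05 there were 2 lower, Fas and Bbc3 (6.9%, against 4.44% of all probesets), and 1 higher, Tnfrsf10b (3.45%, against 6.77%). Non-overlapping arrays were found for 3 lower members (10.3%, against 7.05%) and 5 higher ones (17.2%, against 13.6%), both near the share of all probesets.

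Fas differed by -0.32 (SE 0.11, 95% interval -0.56 to -0.07, limma adjusted p = 0.377), with 1 of the 3 nilotinib arrays close to MEFs + DMSO and 2 well below. Bbc3 differed by -0.26 (95% interval -0.40 to -0.11) and its 3 nilotinib arrays lay together. Tnfrsf10b and Eda2r were 0.16 higher each (limma adjusted p = 0.413 and 0.585). Over the 29 members the 95% intervals ran from -0.56 for Fas to 0.41 for Rps27l, so larger differences in either direction lay outside the intervals of all 29.

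The next comparison, MEFs + ALL + nilotinib over MEFs + nilotinib, held the drug constant. It asked how dishes with ALL cells and their filter differed from dishes without them. The members again lay mostly below 0, at 23 of 29, with a median of -0.09 (all genes -0.01). None was called by limma, where 0.186% of all probesets were. At an unadjusted p under 0.05, 7 were lower (24.1%, against 4.34% of all probesets) and 1 higher (3.45%, against 4.93%), the autophagy gene Dram1 (0.17). The arrays did not overlap for 12 lower members (41.4%, against 6.62%) and 1 higher (3.45%, against 7.8%). Without replicate 2 of MEFs + ALL + nilotinib the median was -0.06, and the counts at an unadjusted p under 0.05 were again 7 lower and 1 higher, with 0 called.

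Gadd45a had the largest difference (-0.41, SE 0.07, 95% interval -0.56 to -0.27, limma adjusted p = 0.0695), a fold of 0.750. It was called with limma's trend and robust options, with array weights and without the dimmest probesets, and in no fit that left out a replicate. Eda2r followed at -0.33 (SE 0.10, limma adjusted p = 0.371), then Mdm2 at -0.31 (SE 0.08, limma adjusted p = 0.270), Apaf1 at -0.28 and Plk2 at -0.26 (limma adjusted p = 0.278 and 0.229). Trp53inp1 and Pmaip1 each differed by -0.24, Polk by -0.22 and Btg2 by -0.20, all without overlap of the arrays. Fas (-0.08) and Bbc3 (0.03) overlapped between these groups. The comparisons of MEFs + ALL + nilotinib with MEFs + DMSO and with MEFs + nilotinib share the MEFs + ALL + nilotinib arrays, so their lower values are not separate observations.

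**Figure D4:**
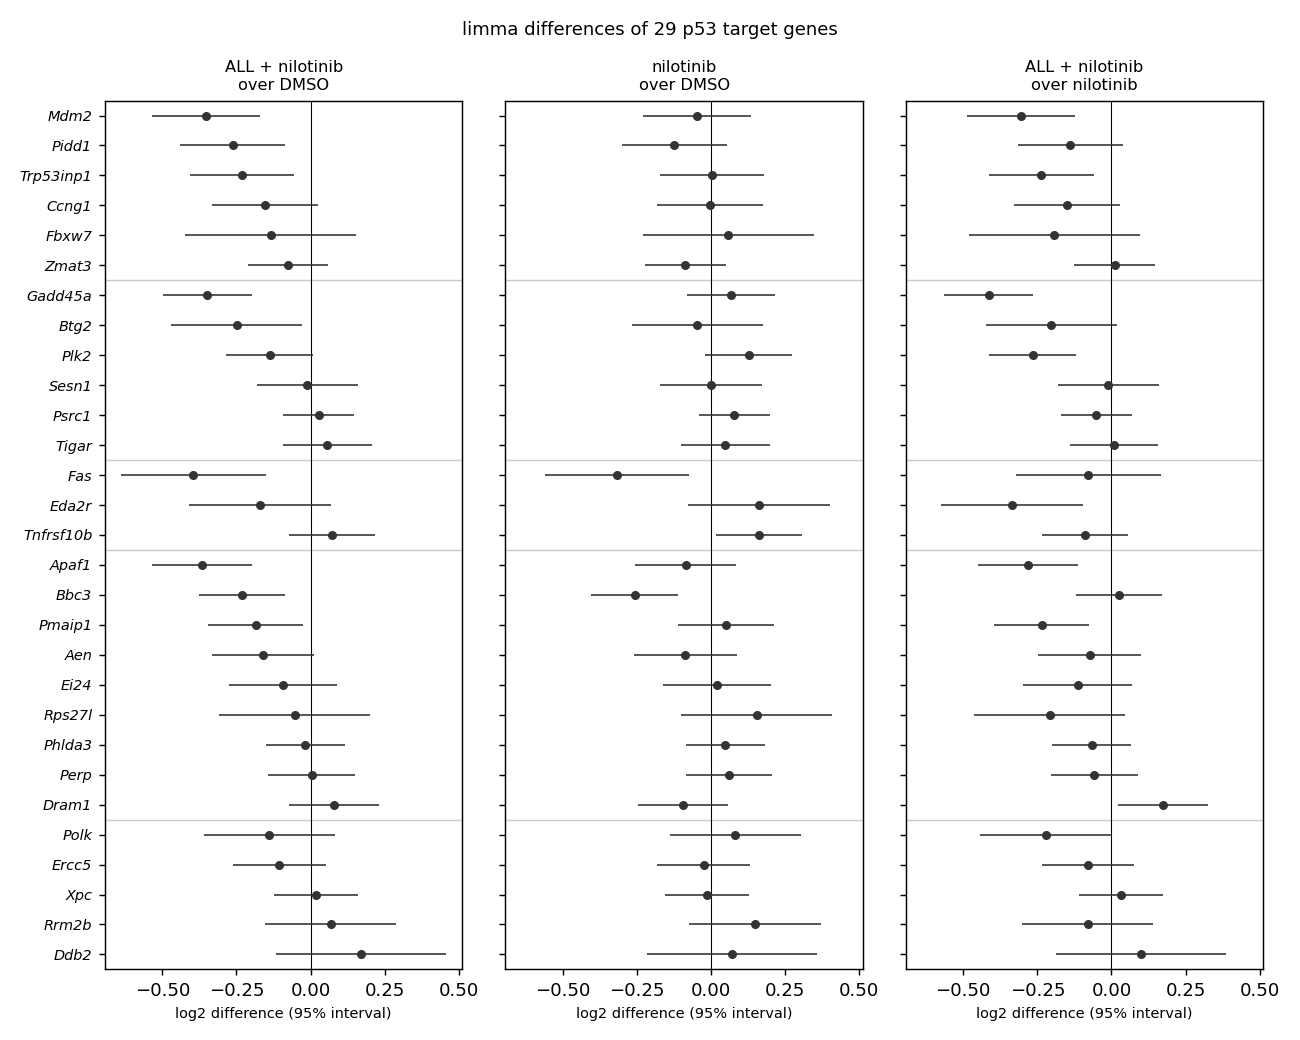
Limma log2 differences (points) with 95% intervals (lines) for the 29 measured p53 target genes in the 3 comparisons between replicated groups, genes in the same order as in the plot of values by array. Most points lie left of 0 when ALL cells are present (21 and 23 of 29) and on both sides of 0 with nilotinib alone. No gene passed an adjusted p of 0.05.

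In the comparison of the single MEFs + ALL + DMSO array with MEFs + DMSO, 8 of the 29 members were called (27.6%), where 10.3% of all probesets were. The array has no replicate and is assumed by the fit to vary like the others. Gadd45a was lower by the most (-0.80, SE 0.09, limma adjusted p = 9.56e-04), followed by Fas (-0.71, SE 0.15, adjusted p = 0.0213) and Mdm2 (-0.63, SE 0.11, adjusted p = 0.00981). Pmaip1 (-0.52), Plk2 (-0.49), Bbc3 (-0.48) and Zmat3 (-0.32) were called lower too. Zmat3 read 10.42, 10.41 and 10.34 in MEFs + DMSO, 10.38, 10.25 and 10.29 in MEFs + nilotinib, 10.29, 10.33 and 10.32 in MEFs + ALL + nilotinib, and 10.07 in the single array. Ddb2 was called higher (0.82, SE 0.18, limma adjusted p = 0.0239).

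The median over the members was -0.21, over all genes -0.07 and over the 13 fibroblast markers -0.17. All 10 leukocyte markers and 10 of 13 pro-B and B cell markers were called higher in the same array, and the part of these leukocyte transcripts in the p53 target values was not tested. In 11 alternative fits, Gadd45a, Mdm2 and Plk2 were called in all 11, Bbc3 and Pmaip1 in 10, Fas in 9, Ddb2 in 8 and Zmat3 in 7.

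Against this single array, MEFs + ALL + nilotinib had 1 member called of 29 (3.45%, against 4.34% of all probesets), which was Gadd45a at 0.45 higher (limma adjusted p = 0.0293). That call was lost when the fit held these groups alone, and without replicate 1 or replicate 3 of MEFs + ALL + nilotinib. The interaction, which asks whether ALL cells shifted a gene differently with nilotinib than with DMSO, had 1 member called (3.95% of all probesets were called). It was Bbc3 (0.51, SE 0.11, limma adjusted p = 0.0439), whose difference with ALL cells was 0.03 in nilotinib and -0.48 in DMSO. The call was absent in 9 of 16 alternative fits, among them 8 of the 9 that left out a replicate. Both results rest on the array with the raised leukocyte markers.

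Genes around the members were read from 5 further lists. In MEFs + ALL + nilotinib over MEFs + DMSO none of the 80 entries of these lists was called. Of 21 upstream kinases and regulators of p53 the median was 0.00. The p53 inhibitor gene Mdm4 differed by -0.31 with overlapping arrays, Pml, which builds nuclear bodies that hold p53, by 0.27 (limma adjusted p = 0.108) and the ubiquitin ligase gene Rchy1 by -0.25. Of 24 measured further p53 targets, 16 lay below 0 with a median of -0.03. The stress sensor gene Sesn2 read 9.60, 9.54 and 9.40 in MEFs + DMSO, 9.57, 8.90 and 9.24 in MEFs + nilotinib, 8.98, 8.95 and 8.90 in MEFs + ALL + nilotinib, and 8.70 in MEFs + ALL + DMSO. Replicate 2 of MEFs + nilotinib reached the level seen with ALL cells. In the other direction Igfbp3, which binds insulin-like growth factors, differed by 0.55 (limma adjusted p = 0.0756) and Steap3, a ferrireductase, by 0.40 (limma adjusted p = 0.0793).

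The 6 cyclin-dependent kinase inhibitor genes lay between -0.09 for Cdkn2b and 0.12 for Cdkn2d. Of 12 measured further BCL2 family genes, the survival gene Bcl2l1 differed by -0.37 (limma adjusted p = 0.215), Bik by -0.25 and Bid by 0.19, and the median was -0.02. Mean signals in MEFs + DMSO, MEFs + nilotinib and MEFs + ALL + nilotinib were 9.69, 9.28 and 9.32 for Bcl2l1. In the same order they were 7.20, 6.95 and 6.95 for Bik and 8.50, 8.72 and 8.69 for Bid, so both nilotinib groups differed from MEFs + DMSO alike. With the drug held constant, in MEFs + ALL + nilotinib over MEFs + nilotinib, the 12 lay between -0.09 and 0.15. The 17 measured cell cycle genes that p21 holds down through the DREAM complex had a median of 0.10 in MEFs + ALL + nilotinib over MEFs + DMSO. Of these, 14 lay above 0, led by Ccna2 (0.34) and Top2a (0.29), and 0 were called. Ccna2 overlapped between these groups and Top2a did not. The same list had a median of 0.06 with 15 above 0 in MEFs + nilotinib over MEFs + DMSO. Its median was 0.01 with 11 above 0 in MEFs + ALL + nilotinib over MEFs + nilotinib. In MEFs + DMSO the signals of these genes ran from 5.64 (Cdc25c) to 8.92 (E2f1), around the array medians of 6.94 to 7.01. Cdkn1a itself was not measured on a probeset of its own, and whether these genes followed p21 here was not tested.

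In the single MEFs + ALL + DMSO array all 17 of these cell cycle genes lay above their MEFs + DMSO means. The median difference was 2.37 over the list and -0.07 over all genes. Top2a read 6.65 to 7.13 in the 9 other arrays and 10.44 in this one, next to the raised leukocyte markers. Sesn2 (-0.81), Bcl2l1 (-0.78), Bik (-0.64), Slc19a2 (-0.53) and Bcl2l2 (-0.42) were called lower there. Cdkn2c (3.46), Chek1 (1.71), Casp1 (1.36), Trp53i11 (1.18), Steap3 (1.06), Bcl2 (0.87), Sirt1 (0.66), Tap1 (0.65), Dyrk3 (0.61), Usp7 (0.52) and Bid (0.40) were called higher. The part of leukocyte transcripts in these values was not tested.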

How the data were processed

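The authors deposited one table of log2 probeset signals for the 10 arrays, with 35557 probesets and 0 missing values. A legend of the study calls such values RMA-normalized, and the submitters' processing notes name Partek. For its version and further settings, nothing was given in the sources used here. On the deposited values, the log2 scale was checked (2.09 to 15.0, array medians 6.94 to 7.01). By the array's annotation 21789 probesets carry 1 gene symbol, 1621 several and 12147 none, and 21698 of the 21789 matched a RefSeq gene ID, which was used for names alone. Of the probesets, 701 share all their values with another.

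Groups were taken from the labels. The values were fitted with limma 3.58.1 in R 4.3.3 (lmFit with 4 group means on all 10 arrays, eBayes, two-sided, Benjamini-Hochberg over all probesets, threshold 0.05). The procedure was run on simulated data, with shifts in the MEFs + ALL + nilotinib arrays alone that were larger than any member difference between replicated groups. That run does not bear on smaller differences or on the single MEFs + ALL + DMSO array. Values in every array are given for Mdm2, each called member, and the 8 members with the largest difference among those with non-overlapping arrays in either comparison of MEFs + ALL + nilotinib with a replicated group. Of the further lists, genes called and up to 3 per list with the largest difference are named. Members and lists were chosen with earlier results of these data known. The number of arrays limits the precision. Replicate numbers name dishes and were not used as a block. Alternatives were the groups in the fit, trend and robust options, array weights, quantile normalization, centring, a filter on dim probesets, the probeset of a gene, the adjustment set, leaving out each replicate and a replicate block. A fit without the MEFs + ALL + DMSO array was added after the data were seen.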

Additional observations from a re-analysis of the deposited data

Results flagged for a closer look

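The limma test of the interaction compared the difference between MEFs with and without ALL cells in nilotinib and in DMSO. It was passed by Bbc3, by cell cycle genes and by other genes of the further lists. Of these, 4 were further p53 targets (Casp1, Trp53i11, Steap3 and Tap1). The interaction is positive where the difference was higher with nilotinib than with DMSO. Bbc3 had an interaction of 0.51 (limma adjusted p = 0.0439). The other values were -3.52 for Cdkn2c, -1.65 for Chek1, -1.31 for Casp1, -1.12 for Trp53i11, -0.92 for Bcl2, -0.67 for Steap3, -0.64 for Tap1 and -0.60 for Usp7. Of the 17 cell cycle genes held down through p21, 16 passed the same test, all with negative values between -3.46 for Top2a and -0.99, with -3.42 for Ccna2 (limma adjusted p from 5.27e-06 to 0.00596). All of these rest on the single MEFs + ALL + DMSO array, in which leukocyte markers were raised, and the part of those transcripts was not tested. No replicated group had more than 3 arrays, so single arrays were not tested as outliers within groups.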

How the results depend on the processing

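In MEFs + ALL + nilotinib over MEFs + DMSO the count of called members was 0 in the fit reported, 3 with trend and robust options, 3 with array weights, 2 after quantile normalization and 2 without the dimmest probesets. In MEFs + ALL + nilotinib over MEFs + nilotinib it was 1 (Gadd45a) under trend and robust options, array weights and the filter on dim probesets. In MEFs + nilotinib over MEFs + DMSO it was 0 in every alternative run. Leaving out each replicate gave 0 to 0 in these 3 comparisons. For MEFs + ALL + DMSO over MEFs + DMSO, quantile normalization gave 13 in place of 8 and leaving out a replicate 5 to 6. Against MEFs + ALL + DMSO, MEFs + ALL + nilotinib had 0 with only these groups in the fit, 2 with trend and robust options, 3 with array weights, 4 after quantile normalization and 0 to 1 without a replicate. The interaction had 0 with trend and robust options, 3 with array weights, 2 after quantile normalization and 0 to 1 without a replicate. The share of all probesets called was not computed under these alternatives, so whether the counts moved with the whole array cannot be told. The cause of these shifts was not tested.

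The median of the members stayed negative in both replicated comparisons with ALL cells, at -0.15 to -0.07 and -0.14 to -0.06 without a replicate. In MEFs + nilotinib over MEFs + DMSO, where the median was 0.02, it was -0.01 after quantile normalization and -0.01 to 0.03 without a replicate.

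Differences near 0 changed sign. In MEFs + nilotinib over MEFs + DMSO, Trp53inp1 was -0.013 with array weights, -0.047 after quantile normalization, and -0.024 to 0.025 without a replicate (below 0 without DMSO replicate 3 at -0.024 and without nilotinib replicate 1 or 2 at -0.0067 and -0.0076), and Ddb2 was -0.072 (without nilotinib replicate 2) to 0.14. In MEFs + ALL + nilotinib over MEFs + nilotinib, Fas was 0.0034 with array weights and -0.17 to 0.035 (without nilotinib replicate 1) when a replicate was left out, Bbc3 -0.0044 (without nilotinib replicate 2; -0.0024 without ALL + nilotinib replicate 3) to 0.059, and Zmat3 -0.018 (without nilotinib replicate 2) to 0.048. Of 806 values recomputed in all, 745 were labelled the same. For a difference this meant the same direction and side of the threshold, and for a count of called members an equal or similar count. For a median it meant a shift smaller than the SD of the MEFs + DMSO array medians.

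Same-numbered dishes did not deviate together (correlations -0.29 to 0.24), and with the replicate block the counts of called members were 0 in the 3 replicated comparisons, with medians of -0.13, 0.02 and -0.09. Without the MEFs + ALL + DMSO array these counts were 0 as well.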
